A study of Mus musculus with 2 samples.

Results

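Transporters of amino acids, sugars and monocarboxylates were analysed in TCRαβ+CD8αα+ intraepithelial lymphocytes (IELs), the T cells that lie between the epithelial cells of the gut. The genes were chosen by symbol, as all members of the solute carrier families Slc1, Slc2, Slc3, Slc5, Slc6, Slc7, Slc16, Slc36, Slc38 and Slc43 for which the array carries a probe. The rule took 131 of 55679 probes, which stand for 102 of 20892 named genes. Of these, 3 carry a transporter's symbol without being one: the neighbouring or antisense transcripts Slc7a6os and Slc36a1os and the pseudogene Slc2a4rg-ps. They were set aside, which left 99 transporter genes.

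Cells of the small intestine were sorted from C57BL/6 mice of both sexes, aged 8 to 12 weeks, and their RNA was pooled over several isolations into 1 sample per genotype. The Control group is labelled Rbpjf/f, with no Cre named, while the text of the study describes control mice that carry CD4-Cre and wild-type Rbpj, and gives a narrower range of ages. The other group, labelled RFF4, is CD4-Cre Rbpjf/f, in which Cre driven by the Cd4 promoter deletes floxed Rbpj, the DNA-binding partner of Notch, in T cells. Each pool was hybridized to 1 array of 1 color, and with only that array behind each genotype there is no replicate, so neither a test nor a standard error or p-value across mice can be given. Differences are log2 values of the array labelled RFF4 minus the Control array, and "2-fold" marks a size and not a test. Rbpj itself read 1.96 on the Control array and 2.28 on the other, a difference of 0.32, and its other probe differed by 0.82. A probe outside the deleted exons cannot show the deletion, and the position of these probes is not given in the sources used here, so the second array is called by its label throughout.

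Levels are log2 signals after subtraction of background, relative to the 75th percentile of each array, so a level of 0 is the signal at that percentile. Levels were compared between the arrays for the same probe, and the levels of different genes cannot be ranked against each other, since probes differ in brightness. Ranges of signal and the brightest probe of a family are used below only to sort genes. The share of gene spots well above background, by the scanner software, was 57.2% on the Control array and 49.7% on the array labelled RFF4, and the median signal over background was 9.47 and 5.78. Of the 131 probes, 81 and 75 were well above background. Probes spotted repeatedly gave a technical SD of 0.16 for a log2 difference, which leaves out the spread between mice. The array labelled RFF4 was the dimmer one: the 8 spike-in controls had about the same raw signal on both arrays (a difference of -0.05), so setting them equal in place of the 75th percentiles lowers each difference by 1.12. This moves the zero line for all genes together. The differences between genes given below do not depend on it, but the direction of genes that differ by less than that amount upwards does, and values under this scaling are given beside the main groups.

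Cells take up amino acids, sugars and lactate through these proteins, because none of these solutes crosses the membrane unaided at a useful rate. A growing lymphocyte relies on a small set: the heterodimer of Slc7a5 and Slc3a2 for large neutral amino acids such as leucine, Slc1a5 and members of Slc38 for glutamine, Slc7a1 for arginine, Slc2a1 and Slc2a3 for glucose, and Slc16a1 and Slc16a3 for lactate. The absorptive enterocyte uses another set, placed by face of the cell. Slc5a1, Slc2a5 and Slc6a19 bring glucose, fructose and neutral amino acids in from the lumen, and Slc2a2, Slc7a7, Slc7a8 and Slc16a10 pass sugars and amino acids on towards the blood.

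The 250 bases before the start of 4 genes are printed for reference, since the data on these genes bear on a DNA-binding factor: Slc38a8, the gene with the lowest difference here, Slc6a19 and Slc5a1, the enterocyte carriers of amino acids and glucose, and Slc3a2, the heavy chain of the lymphocyte heterodimer. The sequences are those of RefSeq for mouse build GRCm38.p6, on the strand of the gene. Slc38a8 is at chr8:119501699-119501948 on the minus strand, Slc6a19 at chr13:73692637-73692886 on the minus strand, Slc5a1 at chr5:33103969-33104218 on the plus strand and Slc3a2 at chr19:8713898-8714147 on the minus strand. Capitals mark matches to the core of the RBPJ motif (TGGGAA or its reverse TTCCCA), to the core of the HNF1 motif, a factor of enterocyte genes (GTTAAT or ATTAAC), and to the E-box of MYC (CACGTG).
Slc38a8: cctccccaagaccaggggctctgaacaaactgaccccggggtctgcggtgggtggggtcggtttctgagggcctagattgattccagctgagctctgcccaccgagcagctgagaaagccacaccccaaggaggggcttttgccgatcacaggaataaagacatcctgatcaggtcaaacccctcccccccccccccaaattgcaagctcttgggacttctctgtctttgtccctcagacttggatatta
Slc6a19: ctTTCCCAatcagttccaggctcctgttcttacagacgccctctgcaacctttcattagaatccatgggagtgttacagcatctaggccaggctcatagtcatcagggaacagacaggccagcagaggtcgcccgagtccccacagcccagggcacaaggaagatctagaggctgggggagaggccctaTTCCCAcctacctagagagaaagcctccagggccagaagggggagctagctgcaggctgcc
Slc5a1: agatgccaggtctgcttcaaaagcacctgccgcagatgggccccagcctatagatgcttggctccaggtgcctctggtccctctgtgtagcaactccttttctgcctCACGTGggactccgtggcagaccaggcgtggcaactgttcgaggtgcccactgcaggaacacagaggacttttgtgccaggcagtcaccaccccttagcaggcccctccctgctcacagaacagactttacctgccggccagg
Slc3a2: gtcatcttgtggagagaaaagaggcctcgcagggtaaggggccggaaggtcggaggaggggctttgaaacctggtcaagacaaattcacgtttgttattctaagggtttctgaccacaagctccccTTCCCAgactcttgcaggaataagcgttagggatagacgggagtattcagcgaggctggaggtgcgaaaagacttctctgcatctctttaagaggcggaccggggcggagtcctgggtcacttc

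Slc6a19 held 2 matches to the RBPJ core, whose first bases lie at -248 and -61 from the start of the gene, and Slc3a2 held 1, at -124. Slc5a1 held an E-box at -143, and Slc38a8 held no match to the 3 motifs in this window. The RBPJ core was present in 11 of the 71 transporter genes with a listed promoter (15.5%), beside 21.5% of all 27025 promoters of that length. It was present in 2 of 8 lymphocyte and 2 of 13 epithelial carriers. The HNF1 core was in 5 of 71 (7.04%), beside 6.52% of all promoters. The E-box was in 11 of 71 (15.5%), beside 6.05%. An E-box and an RBPJ core can share bases, and such overlaps were counted for both. A match is a description of letters and not a binding site.

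Of the 99 transporter genes, 56 were above background on both arrays, 5 on the Control array alone, 1 on the array labelled RFF4 alone and 37 on neither. A difference could be given for 57 of them. The 5 on the Control array alone (among them Slc1a3, Slc5a2, Slc6a13 and Slc38a3, named after their values were seen) have no fold, because the bound that background sets for each was under 1. The median difference of the 57 was 0.33, from -2.45 to 1.99, beside a median of -0.01 over all 13515 genes with a difference. On the array labelled RFF4, 19 of the 57 were more than 2-fold higher, beside 12.3% of all genes with a difference, and more than 2-fold lower were 2 of the 57, Slc38a8 and Slc1a5, beside 5.05%. None (0) was more than 4-fold higher, beside 1.85%, and 1 was more than 4-fold lower, beside 0.585%. Setting the spike-in controls equal gave 0 genes past 2-fold upwards and 25 downwards, and a median of -0.77, over 62 genes, since those on the Control array alone then have a bound. Of all 14213 genes with a difference in that scaling, 1.39% were past 2-fold upwards and 56.7% downwards, with a median of -1.10. Over the same 57 genes the median was -0.79, with 23 past 2-fold downwards.

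Genes of low signal were more often higher on the array labelled RFF4, whether transporters or not, so the counts were also read by signal. Among genes whose mean level over both arrays was below -2, 7 of 12 transporters were more than 2-fold higher, beside 25.1% of all genes in that range. Between -2 and 0 the count was 9 of 18, beside 16.2%. It was 2 of 13 between 0 and 2, beside 9.39%, and 1 of 14 above 2, beside 4.68%. More than 2-fold lower were 0 of 12 (6.93% of all genes in that range), 0 of 18 (6.24%), 1 of 13 (5.88%) and 1 of 14 (2.76%). The median difference of the transporters was 1.05, 0.88, 0.37 and -0.40 in these ranges, from the dimmest to the brightest, beside 0.27, -0.01, -0.14 and -0.02 over all genes. The median of the transporters was thus above that of all genes in the 3 dimmer ranges and below it in the brightest, which is a description without a test. Of the 14 brightest, 9 belong to the lymphocyte carriers. Spike-in scaling lowers each of these medians by 1.12, which leaves all of them below 0.

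**Figure D1:**
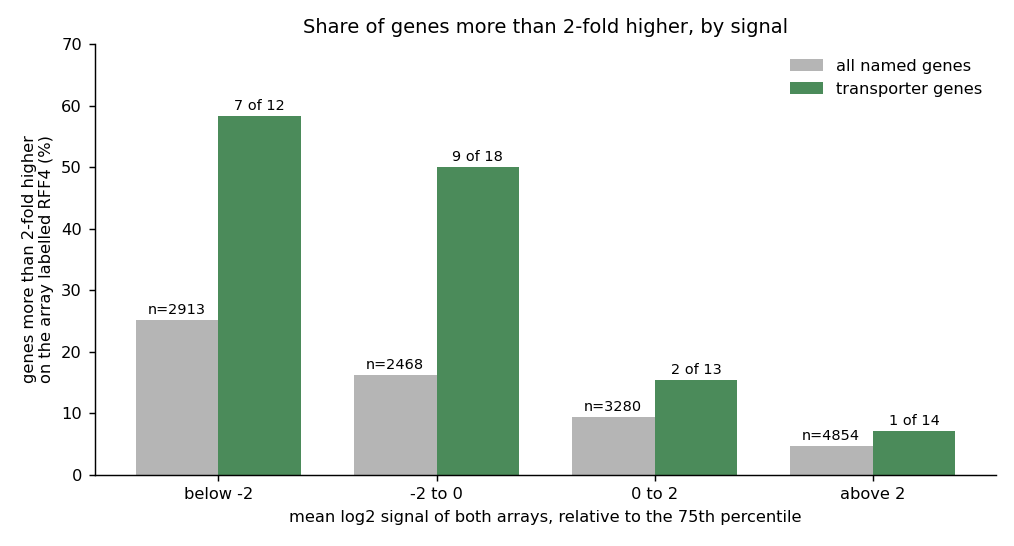
Share of genes that were over 2-fold higher on the array labelled RFF4 (y axis, %), for all named genes with a difference (grey, n above each bar) and for the transporter genes (green, count above each bar), by mean log2 signal of both arrays relative to the 75th percentile (x axis). The counts were 7 of 12 against 25.1% below -2 and 9 of 18 against 16.2% between -2 and 0. They were 2 of 13 against 9.39% between 0 and 2, and 1 of 14 against 4.68% above 2. The counts in these brighter ranges are too small to set apart from the share of all genes. In spike-in scaling no transporter (0) was past 2-fold upwards.

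The family medians ranged from -0.61 to 1.20. The counts per family are small, and over all genes 12.3% were more than 2-fold higher and 5.05% lower. Slc7 (7 of 15 genes with a difference), which holds the light chains of heterodimeric amino acid transporters and the cationic amino acid transporters, had a median of 1.20, with 4 genes more than 2-fold higher. Slc6 (6 of 19), the sodium- and chloride-dependent carriers of amino acids, amines and osmolytes, had a median of 1.13, with 4 more than 2-fold higher and all 6 above 0. Slc5 (8 of 13), the sodium-driven carriers of sugars and other solutes, had a median of 0.83, with 3 more than 2-fold higher. At the other end, Slc38 (7 of 11), sodium-coupled carriers of neutral amino acids such as glutamine, had a median of -0.61, with 6 of 7 genes below 0 and 1 more than 2-fold lower. With the spike-in controls set equal, the medians of the same genes were 0.077 for Slc7, 0.0087 for Slc6, -0.29 for Slc5 and -1.73 for Slc38. The median of Slc6 was -0.22 when the 2 genes for which only that scaling gives a difference were counted.

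The other families lay between, and their counts stand beside the same 12.3% and 5.05%. Slc1 (5 of 7), carriers of glutamate and neutral amino acids, had a median of 0.30, with 2 genes more than 2-fold higher and 1 lower. Slc2 (8 of 11), the facilitative sugar carriers, had a median of 0.37, with 3 more than 2-fold higher. Slc43 (3 of 3) had a median of 0.51 and Slc3 (2 of 2), the heavy chains, a median of 0.14. Slc16 (9 of 14), the monocarboxylate carriers, had a median of 0.07, with 2 more than 2-fold higher, and Slc36 (2 of 4), proton-coupled amino acid carriers, a median of -0.48. The median of Slc36 rests on 2 genes and was above 0, at 0.48, when dim probes were kept. That of Slc16 turned to -0.10 under scaling to the median and to -0.066 with the mean of all probes. That of Slc3 turned to -0.035 under scaling to the median, -0.050 under quantile normalization and -0.012 under normexp. In spike-in scaling, the medians of all 6 of these families were below 0.

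**Figure D2:**
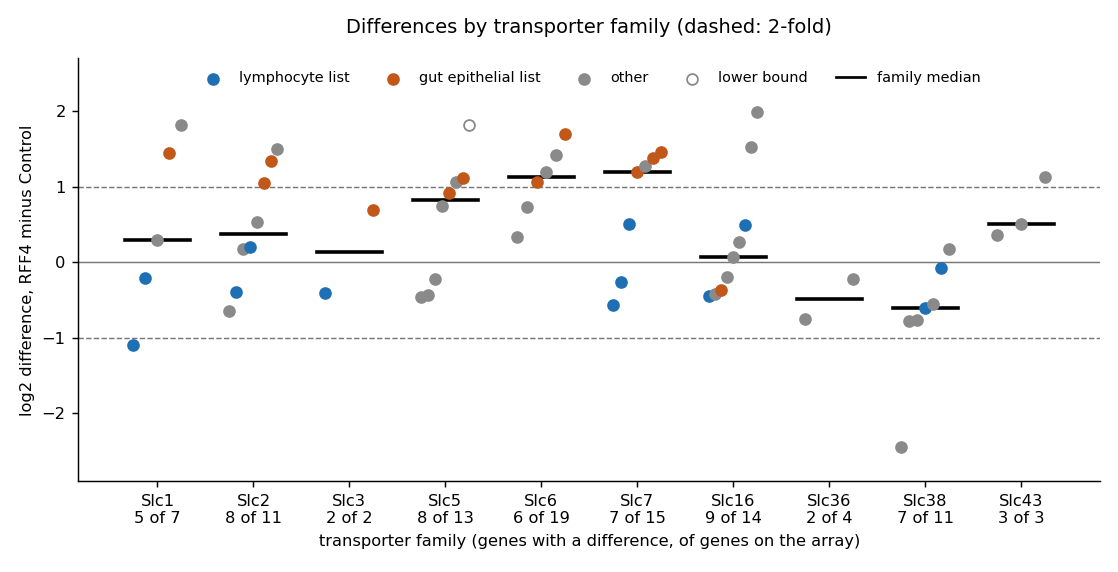
Log2 difference, array labelled RFF4 minus Control (y axis), of each transporter gene with a difference, by family (x axis). Points are genes, blue for the lymphocyte carriers, orange for the gut epithelial carriers and grey for the others, the hollow point is a lower bound, black bars are family medians and dashed lines mark 2-fold. The medians of Slc6 and Slc7 are above the 2-fold line and most Slc38 genes lie below 0; spike-in scaling shifts all points down by 1.12, which puts the Slc6 median of these genes at 0.0087.

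The lymphocyte carriers were above background on both arrays for all 12 genes listed. Their median difference was -0.33, with 3 higher and 9 lower on the array labelled RFF4, 0 more than 2-fold higher and 1 more than 2-fold lower, beside 12.3% and 5.05% of all genes, and 4.68% and 2.76% of genes with a mean level above 2, where 9 of the 12 lie. Slc3a2, also called CD98, the heavy chain that brings its light chains to the cell surface, read 6.60 on the Control array and 6.19 on the other, a difference of -0.41. Slc7a5, its light chain for leucine and other large amino acids, read -0.49 and 0.02, a difference of 0.51. The direction for Slc7a5 rests on 1 probe: its other probe read -1.12 and -1.24, a difference of -0.12. Slc7a6, another light chain of Slc3a2, read -0.68 and -0.94 (-0.26). Slc7a1, the arginine and lysine carrier, read 4.32 and 3.76 (-0.56). Each of these differences was under 2-fold, and in spike-in scaling all 12 genes were lower on the array labelled RFF4, with a list median of -1.45 and 9 genes more than 2-fold lower, beside a median of -1.10 and 56.7% of all genes in that scaling.

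Of the glutamine carriers on this list, Slc1a5 was past 2-fold and Slc38a1 differed by less than the technical SD. Slc1a5, an exchanger of glutamine and other neutral amino acids, read 4.31 on the Control array and 3.22 on the array labelled RFF4, a difference of -1.09, and its other probe differed by -1.71. It is the 1 lymphocyte carrier past 2-fold, and its difference stayed between -1.40 and -1.09 in the alternatives other than spike-in scaling, where it was -2.21. Slc38a2 read 4.66 and 4.06 (-0.61). Slc38a1 read 5.11 and 5.04, a difference of -0.07, and the differences of its 3 probes did not share a sign. Slc1a4, a carrier of alanine, serine and cysteine, read 2.44 and 2.24 (-0.20).

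The sugar and lactate carriers of the list differed by less than 2-fold. Slc2a1, the glucose carrier of most dividing cells, read 2.42 on the Control array and 2.03 on the other (-0.39), and Slc2a3, a glucose carrier of high affinity, read 2.86 and 3.07 (0.21). Slc16a1, which carries lactate both ways, read -2.09 and -1.60 (0.49), and Slc16a3, known for lactate export, read 2.59 and 2.15 (-0.45). Of these 4 genes, Slc2a3 and Slc16a1 were higher and the others lower, and in spike-in scaling all 4 were lower, Slc2a3 by -0.91 and Slc16a1 by -0.63.

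The gut epithelial carriers were above background on both arrays for 12 of 14 genes listed, and Slc5a4b and Slc5a12 were on neither. Their median difference was 1.16, with 11 of 12 higher on the array labelled RFF4 and 9 of 12 more than 2-fold higher, beside 12.3% of all genes. In spike-in scaling the median was 0.036, with 6 higher and 6 lower and none (0) more than 2-fold higher. Taken by signal, more than 2-fold higher were 2 of 3 below a mean level of -2 (25.1% of all genes there), 5 of 6 between -2 and 0 (16.2%), 1 of 2 between 0 and 2 (9.39%), and the 1 above 2 (4.68%). Slc5a1, the sodium-driven glucose carrier of the brush border, read -2.23 on the Control array and -1.11 on the other, a difference of 1.12. Slc2a5, the fructose carrier, read -1.19 and 0.15 (1.34), and Slc2a2, the basolateral sugar carrier, -3.53 and -2.48 (1.05). Slc5a4a read -4.23 and -3.31 (0.92). In spike-in scaling, Slc5a1, Slc2a2 and Slc5a4a were at -0.0045, -0.072 and -0.21, so the direction of these 3 is not settled by these arrays.

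Most of the epithelial carriers with a difference carry amino acids, as do most of those past 2-fold. Slc6a19, the brush border carrier of neutral amino acids, read -3.67 on the Control array and -1.98 on the array labelled RFF4, a difference of 1.69, which was 0.57 under spike-in scaling. Slc6a20a, which carries proline, read -2.13 and -1.07 (1.06, and -0.060 under spike-in scaling). The paralog Slc6a20b was not well above background on either array, and cross-hybridization between such copies was not tested. Slc7a9, the light chain for cystine and basic amino acids, read 0.67 and 2.04 (1.38), and Slc3a1, its heavy chain, -0.73 and -0.04 (0.69, and -0.43 under spike-in scaling). Slc1a1, the glutamate carrier, read -1.59 and -0.15 (1.44).

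The basolateral amino acid carriers did not all lie on the same side. Slc7a7, a light chain for basic amino acids that macrophages also use, read 1.51 on the Control array and 2.98 on the array labelled RFF4 (1.46), and Slc7a8, a light chain for neutral amino acids, read -1.87 and -0.67 (1.20). Both stayed above 0 under spike-in scaling, at 0.34 and 0.077. Slc16a10, a carrier of aromatic amino acids and the exception in the list, read 1.41 and 1.05 (-0.37), and its other probe differed by -1.29. Both light chains pair with Slc3a2, whose difference was -0.41, and -1.53 under spike-in scaling.

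**Figure D3:**
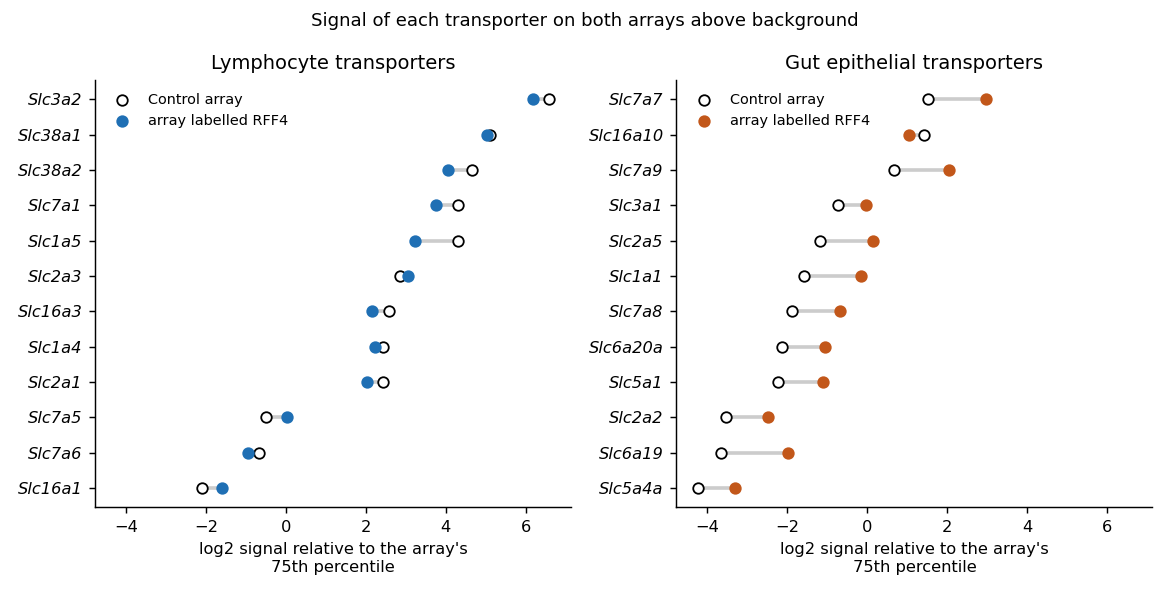
Log2 signal relative to the array's 75th percentile (x axis) of the 12 lymphocyte carriers (left, blue) and the 12 gut epithelial carriers above background (right, orange), on the Control array (open circles) and the array labelled RFF4 (filled circles). Of the lymphocyte carriers 9 lie to the left of their Control value, and of the epithelial carriers 11 lie to the right, against 12 and 6 in spike-in scaling. Rows are different probes, whose positions cannot be compared with one another.

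The epithelial list median minus the lymphocyte list median was 1.49 log2 units. This gap was 1.49 with the spike-in controls set equal as well, since that constant moves both lists together. It was between 1.41, under normexp, and 1.60, with no filter, where the epithelial list holds 14 genes, in the other alternatives. Markers of the epithelial cell moved with the epithelial carriers. All 15 of the 15 epithelial markers were above background on both arrays and higher on the array labelled RFF4, 12 of them more than 2-fold, beside 12.3% of all genes, with a median of 1.55, from 0.31 to 1.89, and none of them was at 0. Their summed linear level, in units of the 75th percentile, was 164 on the Control array and 459 on the other. Villin (Vil1) differed by 1.80 and the fatty acid binding protein Fabp2 by 1.51, while Epcam and Cdh1, which encode surface proteins of all epithelial cells, differed by 0.40 and 0.31. Under spike-in scaling each is lower by 1.12, which puts Epcam, Cdh1, Sis, Alpi and Apoa4 below 0 and leaves the others above it. The part of epithelial RNA in the differences of these carriers was not tested. In a pool of RNA, fewer cells of a type and less RNA per cell cannot be told apart.

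Markers of other cells were measured in the same way. The 9 T cell markers had a median of 0.29, with 1, Cd2 (2.22), more than 2-fold higher, beside 12.3% of all genes. Their summed level was 1241 on the Control array and 1517 on the other. Cd3e read 8.10 and 8.44 and Cd8a read 6.24 and 6.18, which shows T cell RNA on both arrays but does not tell CD8αα cells from other IELs. All 13 macrophage and dendritic cell markers were higher on the array labelled RFF4, 11 of them more than 2-fold, beside 12.3% of all genes, with summed levels of 76.4 and 170. Most of the sum on the Control array comes from Itgax and Itgam, the markers not past 2-fold, which differed by 0.20 and 0.92. C1qa and C1qc were not well above background on the Control array and count with their lower bounds, so the median of the list was at least 2.24. Of 6 B and plasma cell markers, 4 gave a difference, with a median of 1.35 and summed levels of 26.2 and 58.0, and Cd79a was on neither array. Cd4, which the sort removes, was above background on both arrays, at 1.67 and 1.80, and Cd8b1 was well above background on the Control array alone. Under spike-in scaling the medians are lower by 1.12, which puts that of the T cell markers below 0. The part of these cells in the transporter differences was not tested.

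**Figure D4:**
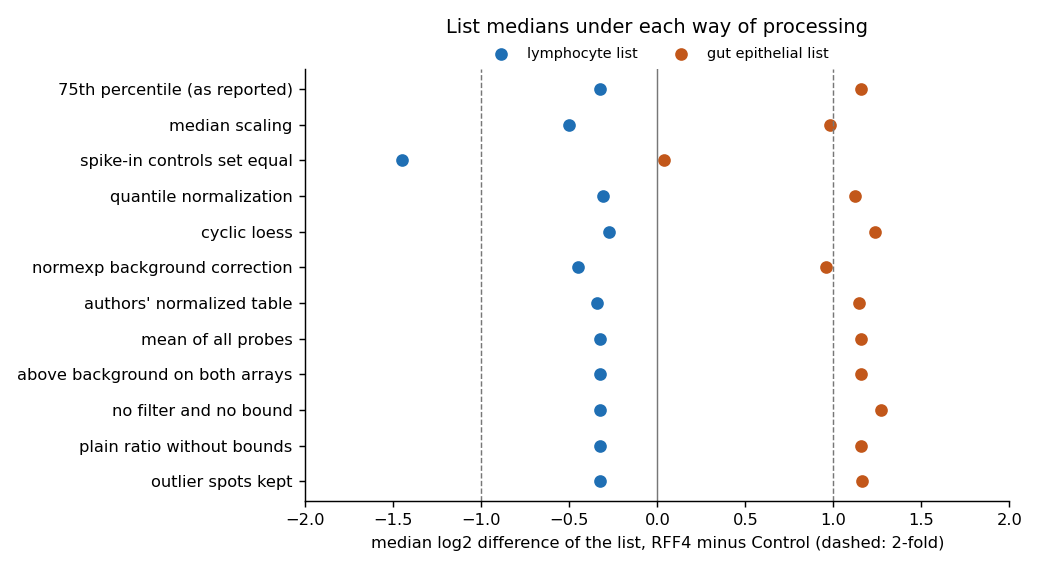
Median log2 difference, array labelled RFF4 minus Control (x axis), of the lymphocyte carriers (blue) and the gut epithelial carriers (orange) under the main scaling and 11 alternatives (y axis), with 2-fold as dashed lines. The distance between the medians stays between 1.41 and 1.60, while setting the spike-in controls equal moves the lymphocyte median to -1.45 and the epithelial median to 0.036.

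Among transporters on neither list, 33 of 73 genes gave a difference, with a median of 0.30, 10 more than 2-fold higher and 1 more than 2-fold lower, beside 12.3% and 5.05% of all genes. The lowest was Slc38a8, a sodium-coupled carrier of neutral amino acids, which read 1.90 on the Control array and -0.54 on the array labelled RFF4. This is a difference of -2.45, or 5.46-fold lower, in 1 probe. It lay between -2.62 and -2.09 in the alternatives other than spike-in scaling, where it was -3.57. No other member was more than 4-fold lower. Other genes of its family, named after their values were seen, differed by less than 2-fold in their main probes. Slc38a7 and Slc38a9, carriers of the lysosome of which Slc38a9 reports arginine to mTORC1, differed by -0.78 and -0.76. The mean of all probes of Slc38a9, of which 2 were above background on the Control array alone, gave -1.25, while normexp correction gave -0.42. Slc38a6 differed by -0.56, and by -0.033 under normexp correction. Slc38a10 differed by 0.17 and changed sign, to -0.00053 under scaling to the median and -0.95 under spike-in scaling.

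The monocarboxylate carriers Slc16a7 and Slc16a5 were among the highest. Slc16a7, a carrier of pyruvate and lactate of high affinity, read -1.12 on the Control array and 0.86 on the array labelled RFF4, a difference of 1.99, and 0.86 under spike-in scaling. Slc16a5 read -0.44 and 1.09 (1.53, and 0.41 under spike-in scaling), and its other probe differed by 2.73, the widest gap among transporter probes above background on both arrays. Slc16a6, the brightest of the family on the Control array, read 5.48 and 5.06 (-0.41). Slc5a8, a sodium-driven carrier of short monocarboxylates, was well above background on the array labelled RFF4 alone, with levels of -6.20 and -3.69, and was at least 3.52-fold higher there, a bound of 1.82 on the log2 scale. The bound was 1.19 under normexp correction and 0.70 under spike-in scaling.

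Proteins that escort these carriers were compared as well. Embigin (Emb), an escort of monocarboxylate carriers, read 5.83 on the Control array and 4.46 on the array labelled RFF4, a difference of -1.37, while basigin (Bsg), the other escort, read 2.88 and 3.32 (0.45). Under spike-in scaling both were below 0, at -2.49 and -0.68. Cltrn, an escort of amino acid carriers in the kidney, was well above background on neither array, and the scaffold Pdzk1 differed by 0.67. The direction of Pdzk1 changed under spike-in scaling, to -0.45.

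The remaining transporters past 2-fold were of low signal and higher on the array labelled RFF4. Slc1a6, a glutamate carrier known from neurons, read -4.70 on the Control array and -2.89 on the other (1.82), and Slc6a4, the serotonin carrier, which enterocytes also make, read -2.24 and -1.04 (1.20). They are the 2 genes with a difference among 8 neurotransmitter carriers with a probe, of which 4 were above background on neither array and 2 on the Control array alone. Slc2a13, a carrier of myo-inositol, read -4.06 and -2.56 (1.50), and Slc43a1, a carrier of large neutral amino acids, -3.96 and -2.83 (1.13). Slc7a4 read -1.86 and -0.58 (1.28), and Slc5a9, a sugar carrier, -2.72 and -1.67 (1.06), with 1.05 in its other probe. Under spike-in scaling Slc5a9 was at -0.065 and the other 5 were between 0.0098 and 0.69. In some other alternatives Slc43a1 and Slc5a9 were under 2-fold, at 0.96 and 0.88 under scaling to the median.

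Several carriers are targets of ATF4, the transcription factor of amino acid shortage. Of 8 such genes, 6 gave a difference, with a median of -0.31, 2 higher and 4 lower, and 1 more than 2-fold higher, beside 12.3% of all genes. The gene past 2-fold was Slc6a9, the glycine carrier, at -2.31 on the Control array and -0.88 on the array labelled RFF4 (1.42, with 1.56 in its other probe). The other genes with a difference are also on the lymphocyte list, so this median is not separate from that of the lymphocyte carriers. Slc7a11, the cystine and glutamate exchanger, and Slc7a3 were not well above background on either array. Atf4 itself read 8.19 and 7.67 (-0.51), which was -0.90 under cyclic loess and past 2-fold under quantile normalization, at -1.10. Under spike-in scaling Slc6a9 was at 0.30 and Atf4 at -1.63.

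Regulators of these carriers mostly differed by less than 2-fold. Of 20 partners and regulators listed, 19 had a probe and 18 a difference, with a median of -0.19, 6 higher and 12 lower. In the main scaling 1 was more than 2-fold higher and 1, Emb described above, more than 2-fold lower. Over all genes these shares were 12.3% and 5.05%. Mtor, the kinase that responds to leucine and arginine, differed by -0.98, while Rptor, its partner, differed by -0.03 and Rheb, Rraga and Rragc, the small GTPases of the pathway, by -0.22, -0.25 and -0.24. The sestrins, leucine sensors and their relatives, differed by -0.22 (Sesn1), -0.09 (Sesn2) and 0.08 (Sesn3). Txnip and Arrdc4, arrestins that lower glucose uptake, differed by -0.17 and -0.99. Mtor and Arrdc4 lie close to 2-fold and were past it, at -1.16 and -1.17, under scaling to the median. Myc differed by 0.30, Hif1a by -0.34 and Nfe2l2 by 0.06. Sesn3 and Nfe2l2 changed sign under scaling to the median and under normexp correction, and in spike-in scaling all genes named in this paragraph were below 0.

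The brightest members of the other families on the Control array differed by less than 2-fold. Slc2a8, a glucose carrier of inner membranes, read 3.91 and 3.26 (-0.65), Slc5a6, the carrier of biotin and pantothenate, 1.15 and 0.70 (-0.46), and Slc43a2, a carrier of large neutral amino acids, 1.29 and 1.66 (0.37). Slc6a6, the taurine carrier, read 2.45 and 2.78 (0.33). Slc36a1, an amino acid carrier of lysosomes, read 0.12 and -0.10 (-0.22), and its other probe differed by 0.68. Under spike-in scaling all 5 were below 0. Of 15 transporter genes with more than 1 probe above background on both arrays, 4 had probes of opposite sign (Slc7a5, Slc16a13, Slc36a1 and Slc38a1) and 1 (Slc16a5) had probes more than 1 log2 unit apart. Of the 3 symbols set aside, Slc2a4rg-ps read 3.04 on the Control array and 1.41 on the other (-1.63), Slc7a6os differed by -0.35, and Slc36a1os was above background on neither array.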

How the data were processed

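RNA of sorted IELs, 1 pool per genotype, was hybridized to Agilent mouse arrays of 1 color, which share a slide and a scan. Per the file headers, the deposited intensity values were made by the authors' scanner software (Agilent Feature Extraction 10.7.1.1, per the submitters' notes) by subtracting background, on a linear scale. The authors also deposited a table of normalized log2 values centered per probe, whose column medians are -0.20 (Control) and 0.20 (RFF4). It keeps no levels, and its direction follows from the scanner signals; the settings used to make it are not given in the sources used here. Of its 62976 lines, 6231 hold no value and 924 repeats of a probe were left out.

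The scanner signals were put on the log2 scale, and the 75th percentile over gene probes was subtracted (8.99 and 7.82). Control and outlier spots (102 and 131) were left out, none (0) was saturated, spots of a probe were averaged, and the probe with the highest mean stood for its gene. Of 29150 probes with a RefSeq accession, 27509 were matched to a current symbol. A probe counted as above background when the software marked 50% or more of its spots so. Where this held on 1 array alone, the other side was set to the higher of its own value and the lowest signal among probes above background (-5.51 and -4.29), which gives a bound. The technical SD is the root of the summed squares of the spot SDs (0.12 and 0.11). Signal over background and the single array per group limit the precision. Alternatives were scaling to the median, spike-in controls, quantile normalization, cyclic loess, normexp with an offset of 50 on median spot signals, the deposited table, mean probes, filters on dim probes, plain ratios and outliers kept. The steps were tested on simulated data. The calculations used Python 3.11.15, numpy 2.4.6, pandas 2.3.3, R 4.3.3 with limma 3.58.1, and matplotlib 3.10.9.

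Named genes are the members of the lymphocyte, gut epithelial and ATF4 lists, members past 2-fold, the brightest of each family on the Control array, and the partners and regulators. Others are named where stated. The members and lists were chosen with earlier results of these data known. Values of some genes are not reported here.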

Additional observations from a re-analysis of the deposited data

How the results depend on the processing

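With 1 array per group, depth of signal and the choice of scaling limit these values, and no library could be left out. No paired analysis was possible because each group has 1 sample. Keeping only genes above background on both arrays, cyclic loess, the deposited table and outlier spots kept moved no list or family median by more than the technical SD. Scaling to the median lowers each gene by 0.17: the median of all transporters was then 0.13, of the lymphocyte carriers -0.50 and of the epithelial carriers 0.98, and the family medians were 0.13 (Slc1), 0.19 (Slc2), -0.035 (Slc3), 0.66 (Slc5), 0.72 (Slc6), 1.02 (Slc7), -0.10 (Slc16), -0.66 (Slc36), -0.78 (Slc38) and 0.34 (Slc43). Setting the spike-in controls equal lowers each gene by 1.12: 0 transporters were more than 2-fold higher and 25 lower, the median of all was -0.77, of the lymphocyte carriers -1.45 and of the epithelial carriers 0.036, and the family medians were -0.64 (Slc1), -0.75 (Slc2), -0.98 (Slc3), -0.38 (Slc5), -0.22 (Slc6), 0.077 (Slc7), -1.05 (Slc16), -1.61 (Slc36), -1.70 (Slc38) and -0.61 (Slc43). Genes more than 2-fold higher that turned under it were Slc2a2 (-0.072), Slc5a1 (-0.0045), Slc5a9 (-0.065) and Slc6a20a (-0.060). These shifts follow from the constant subtracted and from the genes it lets in, since differences could be given for 59 transporters under the median and 62 under spike-in scaling, beside 57; over the same 57 genes the medians were 0.16 and -0.79, and over the same 6 genes Slc6 was at 0.96 and 0.0087. Normexp correction lowers a gene by 0.12 at the median and gave 0.96 for the epithelial carriers, 0.47 for Slc1, 0.94 for Slc6, 0.95 for Slc7 and -0.42 for Slc38. Quantile normalization gave -0.050 for Slc3 and 0.90 for Slc6, the mean of all probes gave -0.096 for Slc36, and plain ratios gave 0.90 for Slc6. Without filter or bound, which adds dim genes, 45 of 99 transporters were more than 2-fold higher, beside 30% of all 20892 genes, the median of all transporters was 0.74, beside 0.25 over all genes, and Slc16, Slc36 and Slc38 were at 0.38, 0.48 and -0.40. The cause of the other shifts was not tested. The number of epithelial carriers more than 2-fold higher was 9, and 6 under scaling to the median, 5 under normexp and 8 under quantile normalization. The count of transporters more than 2-fold higher lay between 13 and 45 and that of lower ones between 2 and 3 without spike-in scaling. Counting the 3 symbols set aside, chosen after seeing the data, gave 19 higher, 3 lower and a median of 0.30. Of 63 named genes, the difference moved by more than the technical SD in 63 under scaling to the median, 34 under normexp, 6 with the mean of all probes, 3 each under cyclic loess and quantile normalization, and 1 each with no filter and with plain ratios.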

Other observations

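Solute carriers of the intestine outside these families were looked at after the values above were known, from a list of 18. Of these, 13 gave a difference, with a median of 1.09, 10 higher and 3 lower on the array labelled RFF4, 7 more than 2-fold higher and 0 more than 2-fold lower, beside 12.3% and 5.05% of all genes. Slc10a2, which takes up bile acids in the ileum, read -3.97 on the Control array and -0.87 on the other, a difference of 3.10. The subunits of the basolateral bile acid exporter, Slc51a and Slc51b, differed by 1.82 and 2.11. Slc13a2, a dicarboxylate carrier, differed by 1.84, the iron exporter Slc40a1 by 1.41 and the chloride exchanger Slc26a3 by 1.09. Slc19a3, a thiamine carrier, was at least 4.85-fold higher, with levels of -7.61 and -3.23. On the other side, the nucleoside carrier Slc28a2 read 4.35 and 3.46 (-0.89), the zinc carrier Slc39a4 differed by -0.27 and the iron carrier Slc11a2 by -0.07. The peptide carrier Slc15a1 was above background on neither array. The other 223 solute carrier genes on the array gave 162 differences with a median of 0.03, 25 more than 2-fold higher and 12 lower, beside 12.3% and 5.05% of all genes. With the spike-in controls set equal each of these differences is lower by 1.12, which puts Slc26a3 and both medians below 0.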
